A study of Homo sapiens with 30 samples.

Results

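The 39 glycolysis and hypoxia genes described here were taken by symbol from the gene counts of 30 RNA libraries. All 39 were found among the 26364 listed genes, and all 39 passed the filter on low counts that left 15381 genes for testing. The set comprised 4 transporters of glucose and lactate, 17 glycolytic enzymes, 4 regulators of glycolytic flux, 2 carbonic anhydrases, the hypoxia factor HIF1A with 2 of its hydroxylases, and 9 other genes known as targets of hypoxia signalling. The cells were A375, an established human melanoma line, sequenced from polyadenylated RNA in 10 groups of 3 libraries. Cells were sorted by surface integrin β4 (ITGB4), a laminin receptor subunit, or pushed through fibronectin-coated membranes with 5 µm pores, or both. Parental negative and Parental positive cells were sorted with 0 rounds of migration. Top 10 cells had stayed above the pores over 10 rounds, Bottom 10 cells had passed them each time, and both were then sorted into a negative and a positive group. Before their sort, Top 5 positive cells had stayed above through 5 rounds and Bottom 5 negative cells had passed 5 times. The remaining pair of groups was sorted first and migrated afterwards, with 4 rounds for the negative and 5 for the positive group. All groups shared the same line and culture medium, and the labels name no low-oxygen treatment. The series title sets features that exist before migration beside those induced by it, and the comparisons below follow that division. The labels call the libraries biological replicates but do not say how they were raised, so p-values measure only the spread among these libraries, which may be technical.

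Glycolysis splits glucose into pyruvate, which lactate dehydrogenase reduces to lactate for export with a proton. When oxygen is low the prolyl hydroxylases EGLN1 and EGLN3 no longer mark the HIF1A protein for destruction, and the stabilised protein with its partner ARNT switches on genes that carry a hypoxia response element. Those genes include glucose transporters, most glycolytic enzymes, the pyruvate dehydrogenase kinases that hold pyruvate back from mitochondria, and the cell-surface carbonic anhydrase CA9. In melanoma and other tumours many glycolytic genes are also high in the presence of oxygen. HIF1A is controlled mainly at the protein level, which these data do not measure.

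The core of a hypoxia response element is ACGTG or GCGTG. Promoters were taken from RefSeq (GRCh38.p14, 250 bases before to 50 after the gene start), and 35 of the 39 genes matched; SLC2A3, SLC16A1, BNIP3L and NDRG1 are named only. Either core, on either strand and counting overlapping matches at their own start, was present in 25 of the 35 (71.4%), against 48.4% of 35116 RefSeq promoters of the same length. ACGTG itself was present in 14 of the 35 (40%), against 21.4% of all. The following 5 are the 250 bases before the gene start of CA9 and ANKRD37, which varied together among libraries, and of ADM, PFKFB3 and SLC16A3, which passed a test between groups. They lie on the plus strand at chr9:35673678-35673927 (CA9), chr4:185396591-185396840 (ANKRD37), chr11:10304823-10305072 (ADM), chr10:6144671-6144920 (PFKFB3) and chr17:82228185-82228434 (SLC16A3). Capitals mark the core matches, CACGT and CACGC being the cores read on the minus strand.
CA9: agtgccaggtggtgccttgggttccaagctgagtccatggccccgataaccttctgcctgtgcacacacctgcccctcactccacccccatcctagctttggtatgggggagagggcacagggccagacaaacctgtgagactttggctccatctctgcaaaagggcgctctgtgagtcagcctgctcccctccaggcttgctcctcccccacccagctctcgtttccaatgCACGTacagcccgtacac
ANKRD37: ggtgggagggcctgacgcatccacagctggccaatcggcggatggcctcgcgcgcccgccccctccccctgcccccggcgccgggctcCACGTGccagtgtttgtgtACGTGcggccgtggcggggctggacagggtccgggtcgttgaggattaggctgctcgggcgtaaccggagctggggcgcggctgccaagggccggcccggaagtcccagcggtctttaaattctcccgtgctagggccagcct
ADM: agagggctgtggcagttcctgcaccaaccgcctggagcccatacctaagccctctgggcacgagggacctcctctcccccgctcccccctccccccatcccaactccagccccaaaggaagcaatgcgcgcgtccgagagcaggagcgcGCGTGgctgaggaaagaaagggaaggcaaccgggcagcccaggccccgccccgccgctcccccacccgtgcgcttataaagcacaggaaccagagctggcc
PFKFB3: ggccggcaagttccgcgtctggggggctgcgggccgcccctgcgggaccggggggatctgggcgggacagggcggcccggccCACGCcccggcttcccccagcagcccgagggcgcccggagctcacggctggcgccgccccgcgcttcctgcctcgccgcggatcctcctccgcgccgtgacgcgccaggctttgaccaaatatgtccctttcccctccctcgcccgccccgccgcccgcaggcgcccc
SLC16A3: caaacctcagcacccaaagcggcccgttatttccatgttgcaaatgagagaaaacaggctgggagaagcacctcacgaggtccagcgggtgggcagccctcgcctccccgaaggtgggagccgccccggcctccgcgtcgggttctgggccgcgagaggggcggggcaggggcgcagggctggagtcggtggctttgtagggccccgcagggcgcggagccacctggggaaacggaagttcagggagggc
The CA9 match began 18 bases before the gene start and the ADM match 101 bases before it. ANKRD37 held 3 matches, of which CACGTG counts once on each strand. The PFKFB3 match, on the minus strand, began 168 bases before the start. SLC16A3 had none in this window.

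Levels are CPM, the usual scaling of a gene's count by its library's total, here with TMM factors. The tests are edgeR quasi-likelihood tests with Benjamini-Hochberg adjustment over all 15381 genes, called at an adjusted p under 0.05, and each log2 fold change is given ± its SE. Libraries held 14258919 to 29134945 counts assigned to genes. The defining melanoma markers were mixed: SOX10 was present in every library (287 to 1460 CPM), the pigment genes MLANA and TYR stayed under 1 CPM, and the immune marker CD3E had 0 counts in all libraries. Summed marker lists of other cell types ran from 65.2 to 219 CPM for keratinocytes, 7.38 to 30.7 for fibroblasts, 3.19 to 23.1 for endothelium and 0.10 to 1.14 for immune cells. In the keratinocyte list KRT10 ran from 62.9 to 187 CPM and KRT14 from 0.23 to 40.0, while KRT5 and KRT1 stayed under 1 CPM. The part of these marker genes in the results was not tested. ITGB4 itself ranged widely within each sort: group means ran from 7.38 ± 5.17 CPM (Top 10) to 135 ± 162 CPM (sort then 4 rounds) among negative groups, and from 28.2 ± 14.9 CPM (Top 5) to 194 ± 149 CPM (sort then 5 rounds) among positive groups (SD, n = 3). The 6 libraries with a score beyond 30 on the second principal component stood apart: replicate 1 of Top 10 negative, 3 of Bottom 10 positive, 2 of the negative sort then 4 rounds, 2 of Bottom 5 negative, and 1 and 3 of Top 5 positive. In these 6 the rank correlation of a gene's level, relative to the other libraries, with its transcript length ran from -0.52 to -0.20, against -0.20 to 0.43 in the other 24. Results are given without these 6 where that changes a call. In bulk RNA, a change in the number of cells that express a gene and a change in RNA per cell cannot be told apart.

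A few glycolytic enzymes were the most abundant of the 39 transcripts, and most pairs of isozymes kept their order in nearly every library. Per kilobase of transcript, the medians over 30 libraries were 3887 CPM for GAPDH (glyceraldehyde-3-phosphate dehydrogenase), 1690 for ENO1 (enolase), 1110 for PKM (pyruvate kinase), 1097 for ALDOA (aldolase) and 662 for TPI1 (triose-phosphate isomerase). PGK1 (166), PGAM1 (169) and GPI (154) were lower. At the other end of the set, CA12 had a median of 0.06 CPM per kilobase, with 0 to 19 counts a library, and the prolyl hydroxylase EGLN3 had 0.34, with 5 to 42 counts. Scaled by length, HK1 exceeded HK2 in 30 of 30 libraries with a median ratio of 2.41; both enzymes phosphorylate glucose. Of the 3 phosphofructokinase genes, PFKP was highest in 30 of 30 libraries, at a median of 2.44 times PFKM and 2.73 times PFKL. ALDOA exceeded ALDOC in 30 of 30 libraries, but the ratio ranged from 8.89 to 75.5, and that of ENO1 to ENO2 from 20.7 to 117. Of the lactate dehydrogenase subunits LDHB was higher per kilobase: LDHA was above it in 1 of 30 libraries and the median ratio was 0.64. That order rests on the transcript lengths used, 2416 bases for LDHA and 1538 for LDHB. Before scaling by length the medians were 1051 CPM for LDHA and 967 CPM for LDHB. SLC2A1, the GLUT1 transporter, exceeded SLC2A3 (GLUT3) in 28 of 30 libraries, and SLC16A1 (MCT1) exceeded the lactate exporter SLC16A3 (MCT4) in all 30. PFKFB3 and PFKFB4 did not keep an order: PFKFB3 was above PFKFB4 in 17 of 30 libraries, with a ratio from 0.46 to 2.39. EGLN1 was the dominant hydroxylase transcript, at a median of 36.8 times EGLN3. Near-identical copies can affect some of these counts: RefSeq lists 65 pseudogenes named for GAPDH, 46 for BNIP3 and 13 for PGAM1. Reads without a unique alignment, 7.80 to 13.3% per library, stayed out of the counts. SLC2A1, SLC16A1, SLC16A3, PFKM, TPI1, ENO1, CA9, HIF1A, BNIP3L, ANKRD37 and P4HA2 share exon bases with an antisense neighbour. The strand setting of the counting was not given, so the effect of this on their counts is not known. Reads set aside as matching more than 1 gene, 1.54 to 2.27% per library, stayed out of the counts.

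The genes varied widely between libraries of the same group. CA9, the surface carbonic anhydrase that hydrates carbon dioxide, ranged from 0.86 to 183 CPM, a 212-fold span, and its within-group SD of 2.74 on the log2 scale was above that of 99.98% of tested genes. It was at or above 50 CPM in 12 libraries, under 10 CPM in 15 and between these values in 3. Parental negative libraries held 55.2, 1.32 and 1.41 CPM and Parental positive libraries 2.24, 1.32 and 32.0. Top 10 negative libraries held 142, 75.6 and 3.67 CPM and Top 10 positive libraries 158, 98.9 and 6.93. Of the 6 parental libraries 1 was thus at or above 50 CPM, whereas 2 in each Top 10 group were. Bottom 10 negative libraries held 126, 100.0 and 8.79 CPM and Bottom 10 positive libraries 183, 132 and 16.1. The negative sort then 4 rounds gave 4.62, 83.4 and 0.86 CPM, and the positive sort then 5 rounds gave 3.55, 24.7 and 0.91. Bottom 5 negative libraries held 61.2, 2.42 and 1.15 CPM and Top 5 positive libraries 146, 1.30 and 2.42. The highest library of a group was 11.4 to 113 times the lowest, and within each of the 4 ten-round groups replicate 3 was the low library. Of the 12 libraries at or above 50 CPM, 3 were among the 6 that stood apart.

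**Figure D1:**
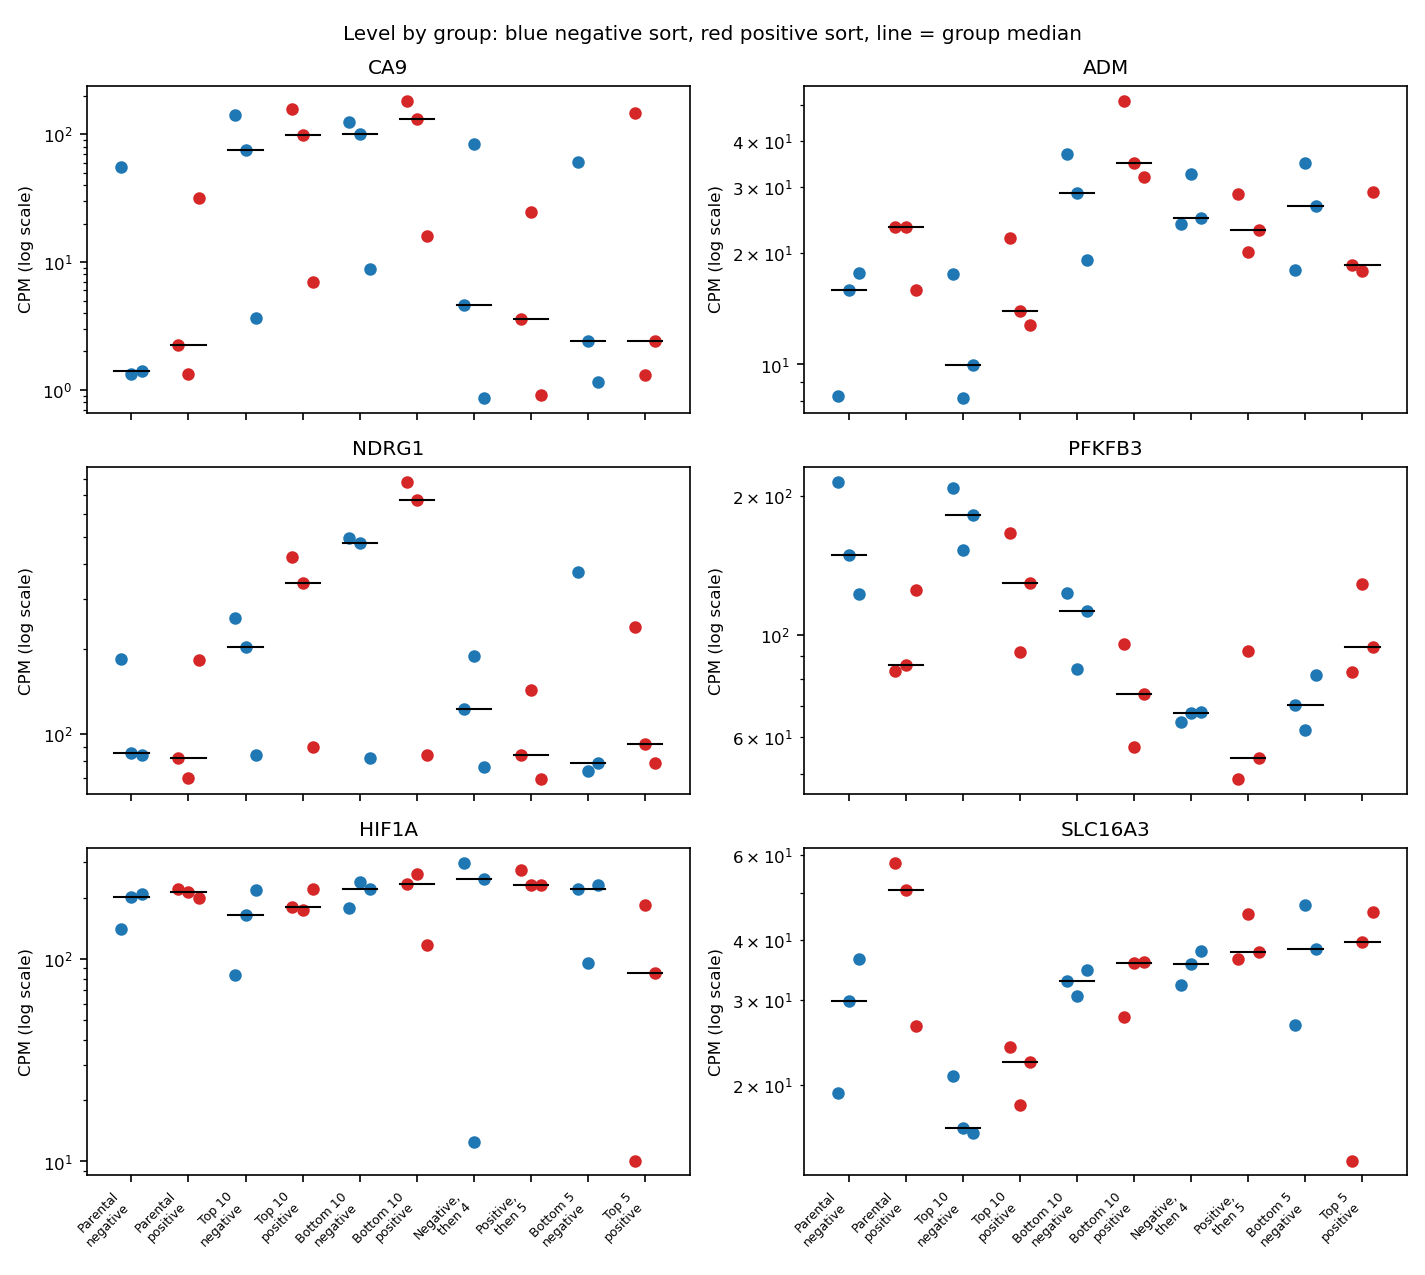
CPM on a log axis for 6 genes in each of 10 groups; points are libraries (replicates 1, 2 and 3 from left to right), blue for the negative and red for the positive sort, and lines are group medians. CA9 and NDRG1 split within groups, HIF1A is between 140 and 220.6 CPM in parental libraries with 2 libraries at 10.1 and 12.5, and SLC16A3 is lower in all 6 Top 10 than in all 6 Bottom 10 libraries.

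A block of hypoxia targets varied with CA9 among libraries of the same group. After group means were removed, 13 of the other 38 genes correlated with CA9 above 0.7 over 30 libraries (34.2%, against 11.7% of 15380 tested genes); these values describe libraries that share depth and composition effects, and carry no test. The highest were P4HA1 (0.96), a collagen prolyl hydroxylase, PDK1 (0.94), a pyruvate dehydrogenase kinase, BNIP3 (0.93), a mitophagy receptor, and PFKFB4 (0.92), a bifunctional enzyme that sets fructose-2,6-bisphosphate. SLC2A3, MXI1, ENO2, P4HA2, ANKRD37, ALDOC, NDRG1, BNIP3L and KDM3A followed, from 0.92 down to 0.74. NDRG1, a stress-responsive gene, showed the same split in its levels: in Bottom 10 negative libraries it was 494, 473 and 82.2 CPM, and in Bottom 10 positive libraries 780.1, 676 and 84.1 CPM. ALDOC, the minor aldolase, held 213, 225 and 51.9 CPM in Bottom 10 negative and 250.1, 226 and 61.7 CPM in Bottom 10 positive libraries. Both genes were thus low in replicate 3 of each group, as CA9 was. Of the 14 genes of this block, CA9 included, 11 matched a promoter. Either core was held by 8 of the 11 (72.7%), close to the 71.4% of all matched members. ACGTG was held by 6 of the 11 (54.5%), against 40% of all matched members.

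Several other members ran against CA9, as many tested genes did. An r under -0.3 was found for 12 of the 38 members and for 5009 of the 15380 tested genes. SLC2A1 correlated with CA9 at -0.78, PKM at -0.72, PGAM1 (phosphoglycerate mutase) at -0.70 and ENO1 at -0.61, while PKM correlated with ENO1 and with PGAM1 at 0.92. The abundant enzymes were not alike in this: PGK1 correlated with CA9 at 0.63, LDHB at 0.12, GAPDH at -0.35 and LDHA at -0.36. In Parental negative libraries, PKM was 1509, 3179 and 3153 CPM, so the library high in CA9 was the low one. SLC2A1 was also lowest in that library, at 125, 247 and 306 CPM. Both glucose transporters were thus high in different libraries: SLC2A3 was 139.7, 56.6 and 49.3 CPM in the same group. Of the 3 genes that passed tests between groups, ADM (-0.08) and PFKFB3 (0.20) lay near 0 and SLC16A3 had -0.59. Without the 6 libraries that stood apart, 17 of the 38 members were above 0.7 over 24 libraries, and the share of all tested genes was not counted. The 5 largest shifts were those of LDHB (0.12 to -0.70), PFKP (-0.33 to 0.41), HK1 (0.29 to 0.85), TPI1 (-0.05 to -0.48) and PFKM (0.37 to 0.77).

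**Figure D2:**
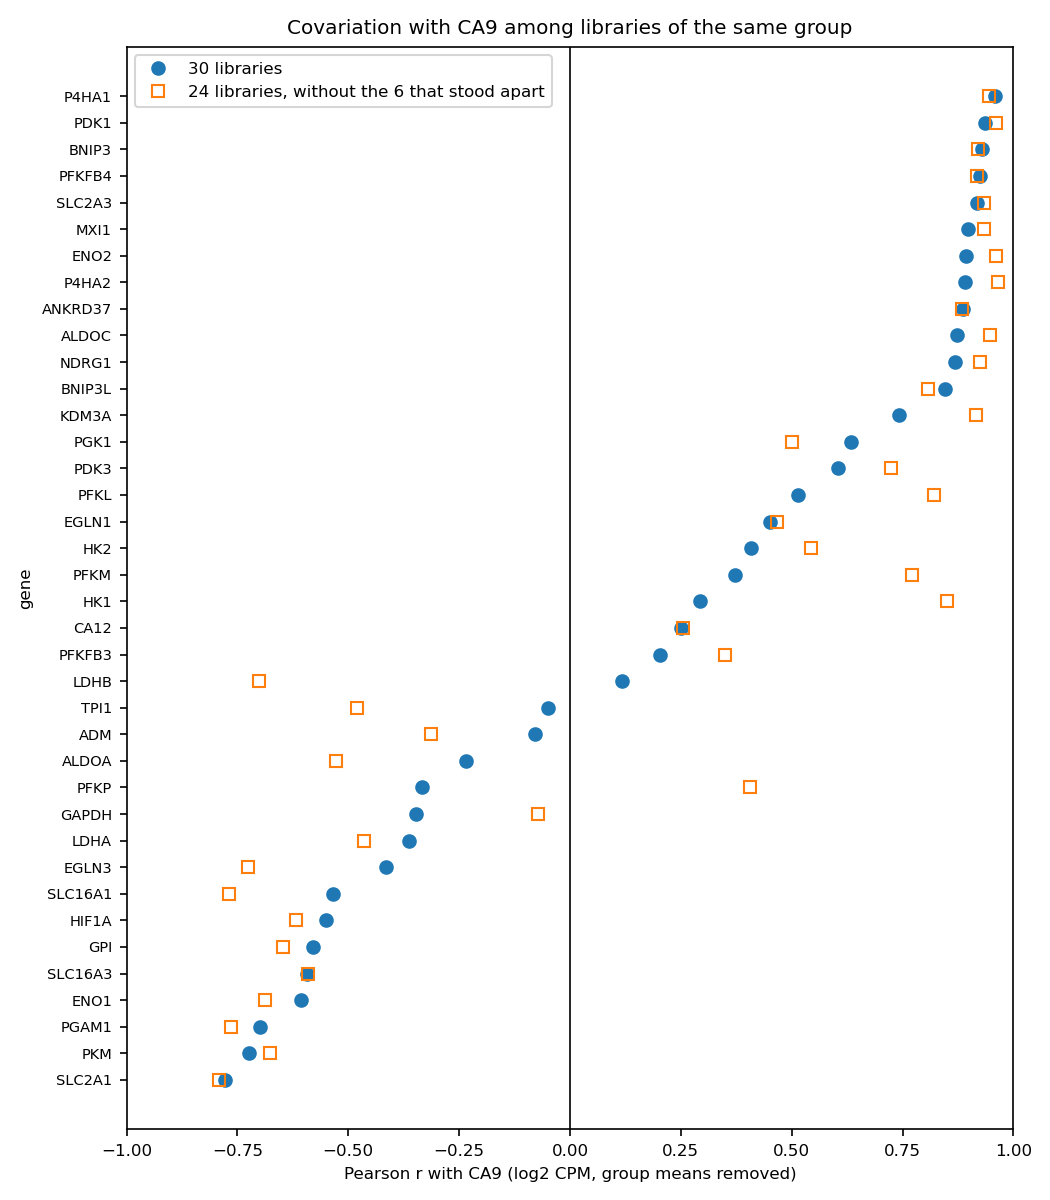
Pearson r of each gene with CA9 (x axis, from -1 to 1) across libraries after group means were removed; filled circles are 30 libraries and open squares the 24 left without those that stood apart. P4HA1 to KDM3A lie above 0.7, and SLC2A1, PKM and PGAM1 lie lowest.

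HIF1A transcript did not follow these targets. It was 140 to 220.6 CPM in the 6 parental libraries and had a median of 212 CPM over all 30, with r = -0.55 against CA9. The lowest values were 12.5 CPM in replicate 2 of the negative sort then 4 rounds and 10.1 CPM in replicate 1 of Top 5 positive, where the other libraries of the groups held 297 and 248 CPM, and 184 and 85.4 CPM. Both are among the 6 libraries that stood apart. They had the highest shares of reads without a unique alignment (12.6 and 13.3%) and the lowest TMM factors (0.82 and 0.88). The part of library quality in these low values was not tested. PFKP was also at its lowest in them (103 and 101 CPM), with r = 0.95 between PFKP and HIF1A over 30 libraries. That correlation was not calculated without these 2 libraries. CA9 was high in both (83.4 and 146 CPM). EGLN1, whose product hydroxylates HIF1A, stayed between 70.1 and 131 CPM. EPAS1, which encodes the related HIF-2α, ran from 2.42 to 13.4 CPM and ARNT from 23.3 to 68.9.

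**Figure D3:**
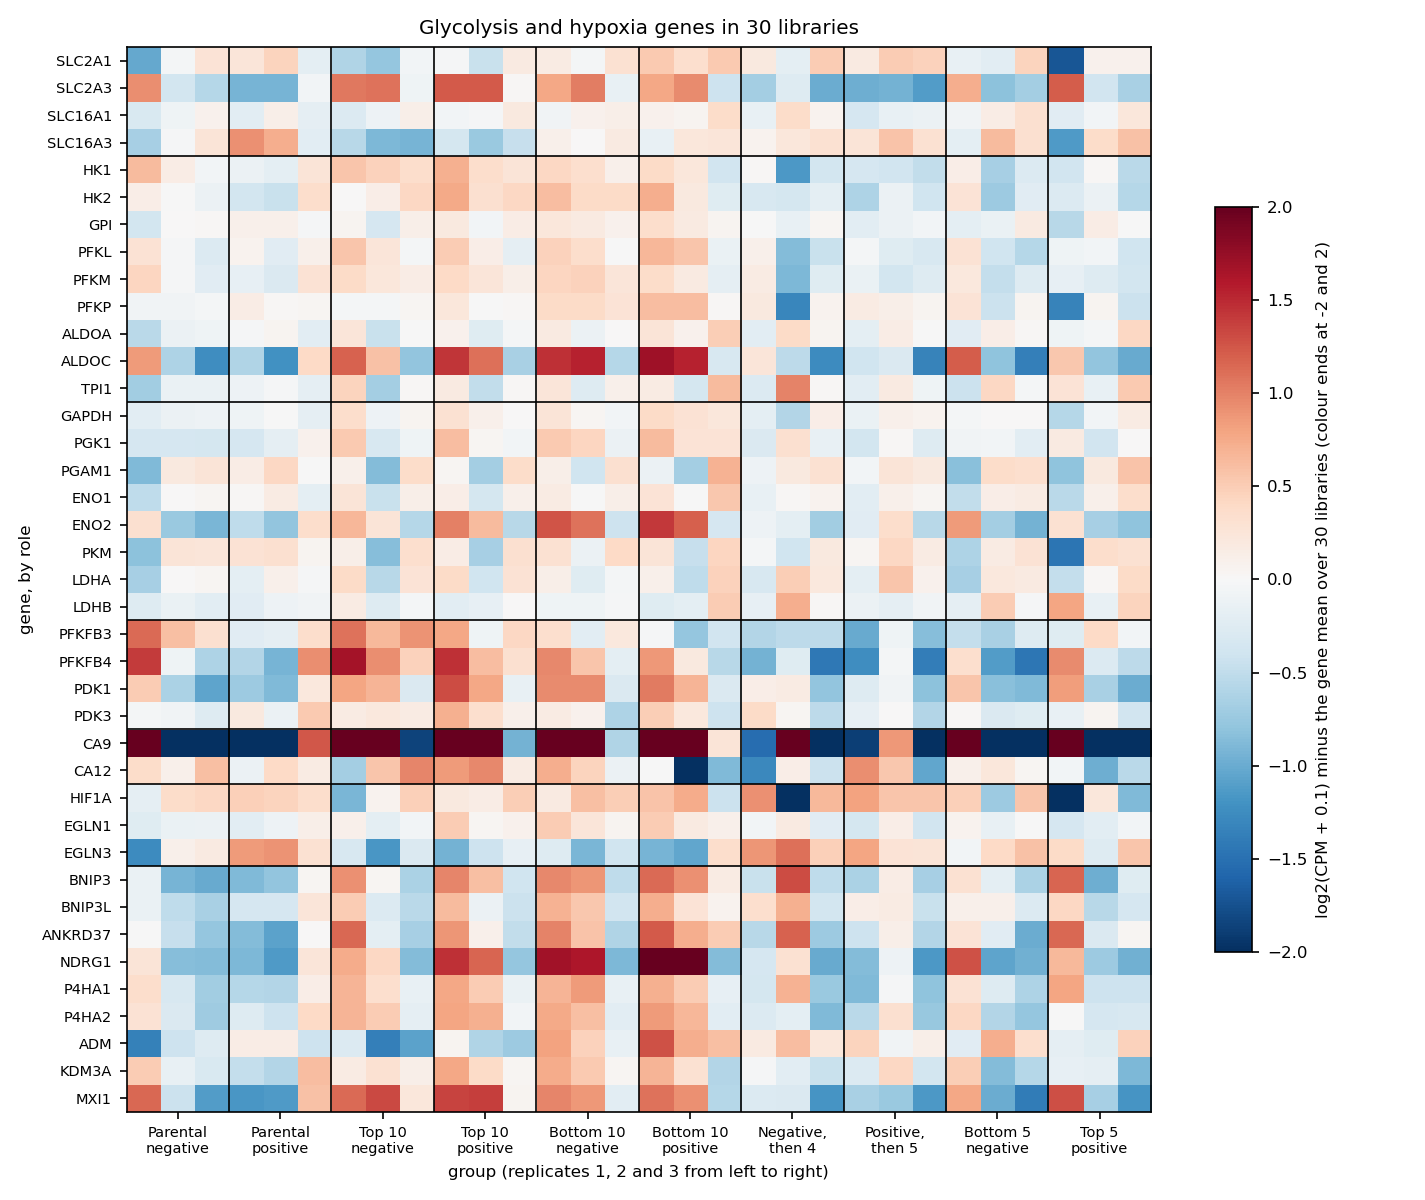
log2(CPM + 0.1) of 39 genes (rows, by role) in 30 libraries (columns, by group), minus each gene's mean, with colours ending at -2 and 2. CA9, ALDOC, ENO2, NDRG1 and MXI1 change colour inside most groups, whereas GAPDH and GPI stay near white.

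Between cells that crossed 10 times and cells that failed to cross, ADM rose and PFKFB3 fell, and the other 37 genes did not pass the test. The 2 calls among 39 genes compare with 3.97% of all tested genes called. With the replicate number as a block in the 4 ten-round groups, 10 members passed (14.9% of tested genes did): ADM, SLC2A1, SLC16A3, ALDOC, ENO2 and PFKP higher, and PFKFB3, PFKFB4, SLC2A3 and MXI1 lower. Without replicate 1, 2 or 3 of all 4 groups that fit called 7, 3 and 11, and the shares of all tested genes called then were not counted. Of the 39 genes 30 were higher and 9 lower, with a median log2 fold change of 0.13 against 0.01 for all tested genes. ADM encodes adrenomedullin, a secreted vasoactive peptide and a known hypoxia target. Its level was 17.5, 8.12 and 9.98 CPM in Top 10 negative and 21.9, 13.9 and 12.7 CPM in Top 10 positive libraries. It was 36.8, 28.9 and 19.1 CPM in Bottom 10 negative and 51.2, 34.9 and 32.0 CPM in Bottom 10 positive libraries. Within each sort every Bottom 10 library was above every Top 10 library in ADM, and the share of tested genes so split was not counted. The log2 fold change, as the mean of the sorts, was 1.26 ± 0.24 (edgeR adjusted p = 0.00183), and it passed without any 1 of the 12 libraries, with adjusted p at most 0.00942. PFKFB3 makes fructose-2,6-bisphosphate, the main activator of phosphofructokinase. Its level was 208, 152 and 182 CPM in Top 10 negative and 166, 91.6 and 129.7 CPM in Top 10 positive libraries. It was 123, 84.4 and 113 CPM in Bottom 10 negative and 95.7, 57.2 and 74.6 CPM in Bottom 10 positive libraries. The groups overlapped in the positive sort only, and the log2 fold change was -0.76 ± 0.19 (edgeR adjusted p = 0.0204). PFKFB3 did not pass without Top 10 negative replicate 1 (adjusted p = 0.0606), Top 10 positive replicate 1 (0.0845), Bottom 10 negative replicate 2 (0.0777) or Bottom 10 positive replicate 2 (0.0718), nor without the 6 libraries that stood apart (0.082).

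SLC16A3, which exports lactate, was the 1 member of 39 whose 6 Top 10 libraries (15.9 to 24.0 CPM, median 19.5) did not overlap the 6 Bottom 10 libraries (27.6 to 36.0 CPM, median 33.7). Of all tested genes 3.47% did not overlap. The Bottom 10 levels were 32.8, 30.6 and 34.6 CPM in the negative and 27.6, 35.9 and 36.0 CPM in the positive sort. Its log2 fold change was 0.75 ± 0.23, which did not pass (edgeR adjusted p = 0.0605), and passed without the 6 libraries that stood apart (0.0375) and with the replicate block (0.00131). SLC2A1, the main glucose importer, had 0.56 ± 0.25 (edgeR adjusted p = 0.297), and 0.58 ± 0.09 with the replicate block (0.00206). CA9 differed by 0.20 ± 1.29, the largest SE of the 39 genes. The 8 triose-step and lactate dehydrogenase genes had 0 calls and a median of 0.14, and the 9 hexose-step genes had 0 calls and a median of 0.15, with 0 of the 17 under an unadjusted p of 0.05 (12.8% of tested genes were). DESeq2 called 3 of the 39 (ADM, PFKFB3 and SLC16A3) and 5.42% of its tested genes.

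**Figure D4:**
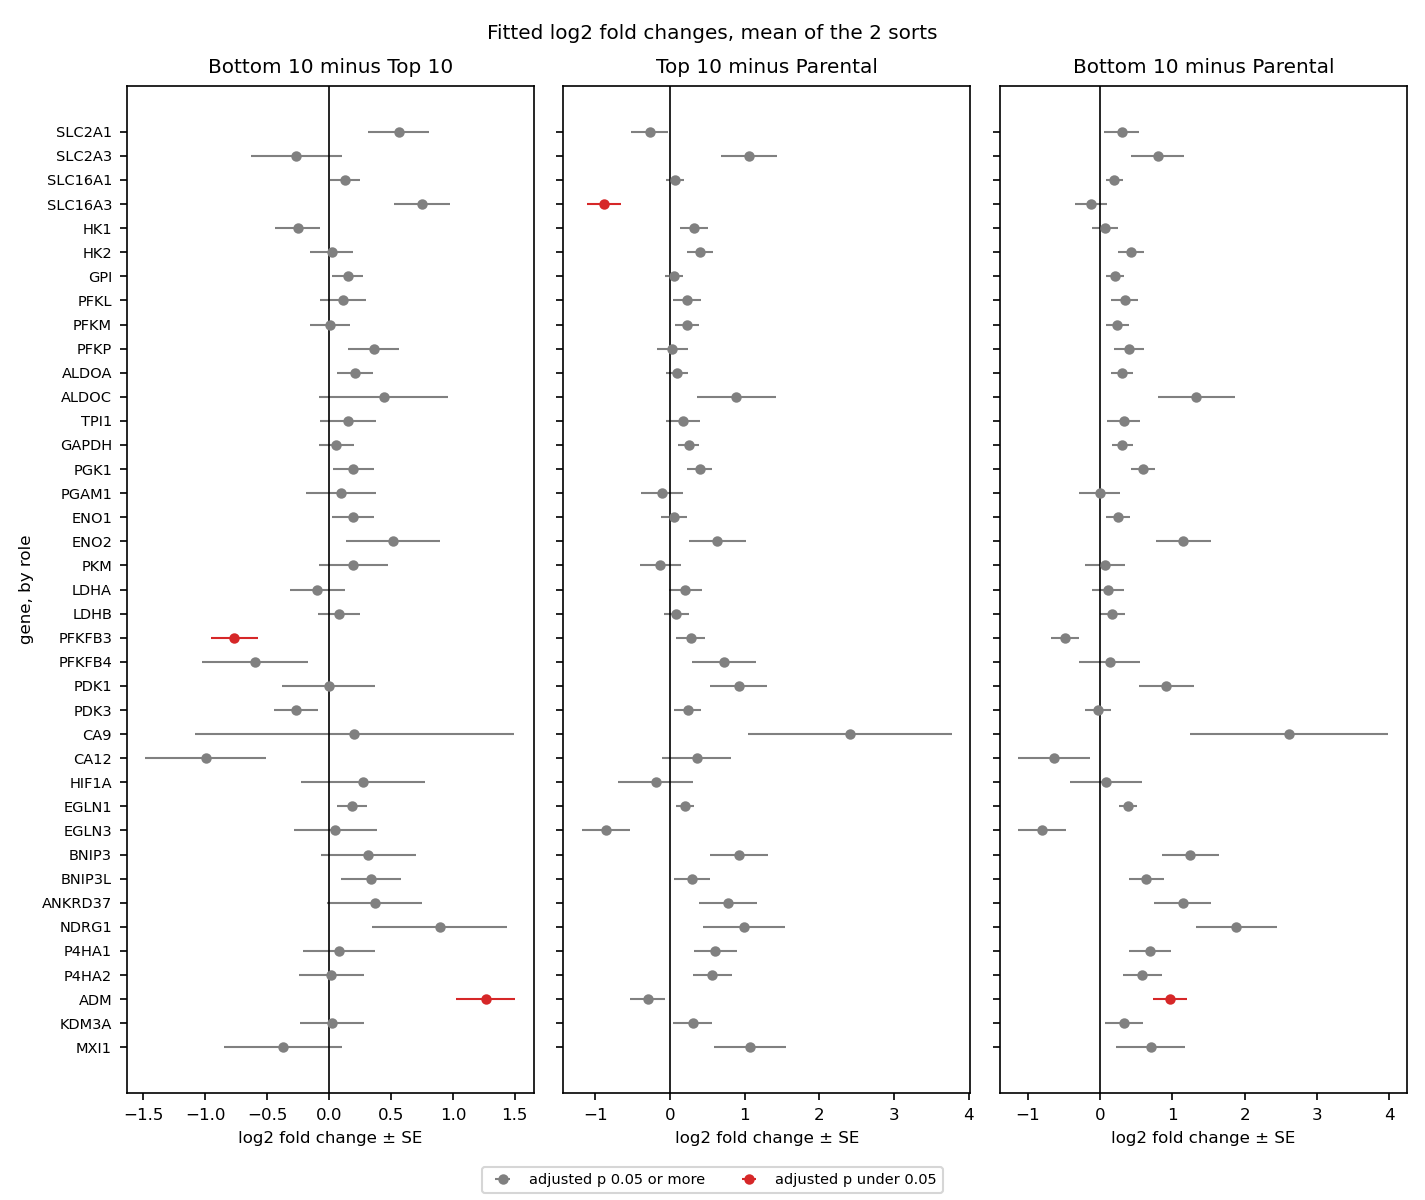
Fitted log2 fold changes ± SE of 39 genes, by role, for Bottom 10 against Top 10, Top 10 against Parental and Bottom 10 against Parental cells (mean of the 2 sorts); red marks an adjusted p under 0.05. ADM and PFKFB3 are red in the first panel, SLC16A3 in the second and ADM in the third, and the CA9 bars are the widest.

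Within a single sort no member passed: 0 of 39 in the negative sort, where 1.33% of tested genes were called, and 0 of 39 in the positive sort, where 0.943% were. At an unadjusted p under 0.05 there were 3 members in each sort, against 9.04% and 9% of tested genes, and DESeq2 called 1 in each, ADM, against 2.25% and 1.73% of its tested genes. The log2 fold changes of ADM were 1.25 ± 0.34 (negative sort; edgeR adjusted p = 0.0727) and 1.28 ± 0.34 (positive sort; 0.0749). Without the 6 libraries that stood apart, ADM passed in the negative sort (0.0377) and PFKP in the positive, and ADM also passed in the negative sort without Top 10 negative replicate 1 or Bottom 10 negative replicate 3. For a difference between the sorts in response, edgeR called 0 members and DESeq2 0, and 0 had an unadjusted p under 0.05. Of all tested genes 0% were called and 2.87% were under 0.05 unadjusted. With 0% of tested genes called, 0 calls do not show that the members responded alike in both sorts. Libraries with the same replicate number resembled each other across the Top 10 and Bottom 10 groups of a sort, and a fit with the number as a replicate block in these 4 groups called more members. It called 6 in the negative sort (ADM, SLC2A1, SLC16A3 and ENO2 higher, PFKFB3 and PFKFB4 lower), where 9.29% of 14587 tested genes were called. It called 6 in the positive sort (ADM, SLC2A1 and SLC16A3 higher, PFKFB3, PFKFB4 and SLC2A3 lower), where 7.75% were called. In that fit SLC2A1 had log2 fold changes of 0.61 ± 0.13 (negative; edgeR adjusted p = 0.0179) and 0.56 ± 0.13 (positive; 0.0288). PFKFB4 had -0.58 ± 0.12 (edgeR adjusted p = 0.0136) and -0.64 ± 0.12 (edgeR adjusted p = 0.0098). Without replicate 1, 2 or 3 of all 4 groups, the blocked fit called 3, 0 and 8 members in the negative sort and 3, 1 and 4 in the positive sort. The shares of all tested genes called in these reduced fits were not counted. The block was judged from these same data, which its p-values leave out of account.

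In the pairs of equal replicate number the 2 glucose transporters differed in opposite directions. SLC2A1 was higher in Bottom 10 in 6 of 6 pairs, by 0.34 to 0.79 on the log2 scale, while SLC2A3 was lower in 6 of 6, by -0.46 to -0.07. SLC16A3 was higher in 6 of 6 pairs by 0.20 to 1.11, and ENO2, the minor enolase, in 6 of 6 by 0.16 to 0.82. PFKFB3 was lower in 6 of 6 by -0.85 to -0.68, the narrowest span among the called genes, and PFKFB4 in 6 of 6 by -0.88 to -0.38. ADM, ALDOC, PFKP, PKM, BNIP3 and BNIP3L were also higher in 6 of 6, and HK1, PDK3 and MXI1 lower in 6 of 6. SLC16A1 was higher in 5 of 6. The share of all tested genes with 6 of 6 pairs in 1 direction was not counted. NDRG1 was higher in the 4 pairs of replicates 1 and 2 and slightly lower in the 2 pairs of replicate 3, from -0.09 to 1.21.

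**Figure D5:**
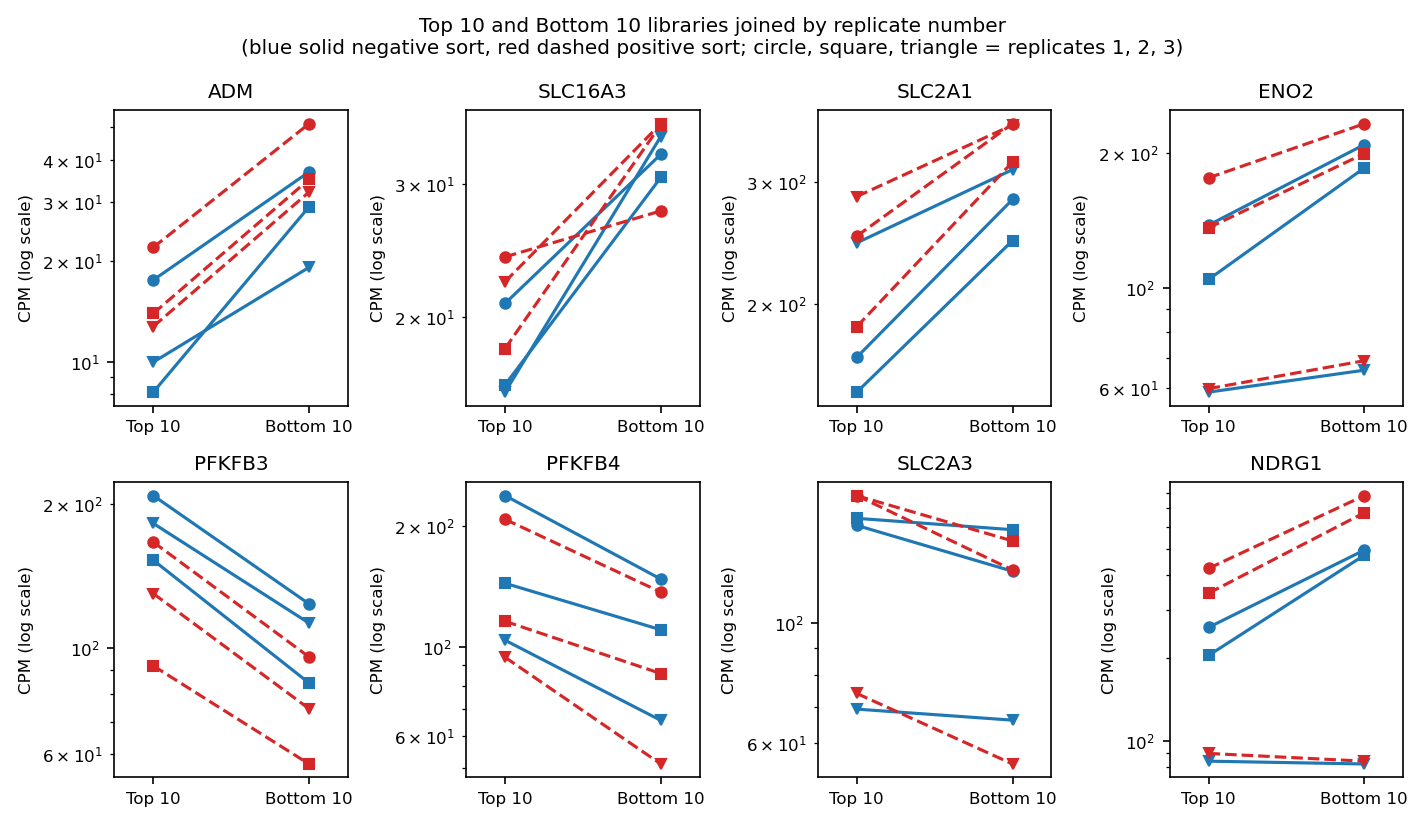
CPM on a log axis of 8 genes in Top 10 and Bottom 10 libraries, joined by replicate number (circle 1, square 2, triangle 3; blue solid negative sort, red dashed positive sort). The lines of ADM, SLC16A3 and SLC2A1 slope up and those of PFKFB3 and PFKFB4 slope down in 6 of 6 pairs, and the replicate 3 lines of NDRG1 and ENO2 lie far below the others.

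Reads outside annotated genes made up 14.3 to 16.6% in the parental libraries and 11.4 to 13.6% in the ten-round libraries, without overlap. The part of this technical difference in the comparisons of ten-round with parental cells was not tested. Against parental cells, the Top 10 cells had 1 call, SLC16A3, which fell (1.79% of tested genes were called). Its parental levels were 19.3, 29.9 and 36.5 CPM in the negative and 57.6, 50.8 and 26.5 CPM in the positive sort. Its Top 10 levels were 20.9, 16.3 and 15.9 CPM and 24.0, 18.2 and 22.3 CPM. The log2 fold change was -0.88 ± 0.23 (edgeR adjusted p = 0.044), and 1 parental library, at 19.3 CPM, lay inside the Top 10 range. The call was lost in 10 of 12 fits that left out 1 library, with adjusted p up to 0.166, and held only without Parental negative replicate 1 or Parental positive replicate 3. Of the 39 genes 32 were higher and 7 lower, with a median of 0.25 against 0.01 for all tested genes, and 10 had an unadjusted p under 0.05 (13.4% of tested genes did). CITED2, a HIF-induced inhibitor of HIF that is not among the 39, fell in this comparison, with -0.61 ± 0.13 (edgeR adjusted p = 0.0156).

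Against the same parental libraries, the cells that crossed 10 times had 1 call, ADM, which rose (1.27% of tested genes were called). ADM was 8.24, 15.9 and 17.6 CPM in Parental negative and 23.4, 23.4 and 15.8 CPM in Parental positive libraries. The log2 fold change was 0.97 ± 0.24 (edgeR adjusted p = 0.0392), and the call was lost in 9 of 12 fits that left out 1 library, with adjusted p up to 0.126. It held without replicate 3 of Parental negative, Bottom 10 negative or Bottom 10 positive. Of the 39 genes 33 were higher and 6 lower, with a median of 0.32 against 0.03 for all tested genes. At an unadjusted p under 0.05 there were 18 of the 39, where 12.8% of tested genes were. All 9 genes of the other hypoxia targets were higher, with log2 fold changes from 0.33 to 1.88 and a median of 0.70. In Top 10 against Parental cells 8 of these 9 were higher and 1 was lower, with a median of 0.61. Most of these genes were thus higher than parental also in cells that failed to cross. NDRG1 had 1.88 ± 0.56 (edgeR adjusted p = 0.0979), BNIP3 1.25 ± 0.39 (0.124) and PGK1, phosphoglycerate kinase, 0.59 ± 0.17 (0.0755). CA9 had 2.61 ± 1.37 (0.436), with 4 of the 6 Bottom 10 libraries above the highest parental library. In Top 10 against Parental cells the log2 fold change of CA9 was 2.41. The Top 10 median of CA9, 87.3 CPM, was also above the highest parental library, 55.2 CPM. DESeq2 called 4 members (ADM, BNIP3, NDRG1 and PGK1) and 3.08% of its tested genes. Without the 6 libraries that stood apart edgeR called 5 (those 4 and PFKP), and the share of all tested genes called in that fit was not counted. Without Bottom 10 positive replicate 3, NDRG1 passed with ADM. Because the same parental and migrated libraries enter these comparisons, their values are not independent of each other.

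The sort by ITGB4 was not accompanied by a called change in any of the 39 genes. ITGB4 itself was not called in either comparison of the sorts. Its log2 fold change was 1.85 ± 0.87 in parental cells and 1.74 ± 0.50 over 3 populations (edgeR adjusted p = 0.176 for the latter). With the sort marker itself not called, 0 calls do not show that the 39 genes were alike in the 2 sorts. In parental cells 0 of 39 passed (0.0585% of tested genes did), with 2 under 0.05 unadjusted (4.45% of tested genes) and 0 by DESeq2 (0.419% of its tested genes). As the mean over Parental, Top 10 and Bottom 10 cells, 0 of 39 passed (0.364% of tested genes did), with 2 under 0.05 unadjusted (5.21% of tested genes). PFKFB3 was nearest, at -0.57 ± 0.16 (edgeR adjusted p = 0.152), and was the 1 member that DESeq2 called (0.969% of its tested genes).

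Among the groups with 4 or 5 rounds, PFKFB3 was the only member called. In the negative sort then 4 rounds it held 64.7, 67.7 and 67.9 CPM, against 214, 149 and 122 CPM in Parental negative libraries, without overlap. Between these groups the test called 2% of tested genes, and the share of tested genes that did not overlap was not counted. The log2 fold change was -1.28 ± 0.27 (edgeR adjusted p = 0.014), and the call was lost without Parental negative replicate 1 (0.151) and without the 6 libraries that stood apart (0.0586). In Bottom 5 negative libraries PFKFB3 held 70.4, 62.1 and 81.9 CPM, also below every Parental negative library. Here the test called 0.858% of tested genes, and the share that did not overlap was again not counted. The log2 fold change was -1.18 ± 0.27 (edgeR adjusted p = 0.039), lost in 5 of 6 fits that left out 1 library (adjusted p up to 0.334) and without the 6 libraries that stood apart (0.181), and held only without Parental negative replicate 3. Both comparisons use the same 3 parental libraries. ADM was higher in both, by 0.96 ± 0.34 and 0.93 ± 0.34, without passing (edgeR adjusted p = 0.136 and 0.274). Its levels were 23.9, 32.6 and 24.8 CPM in the negative sort then 4 rounds, 17.9, 34.9 and 26.7 in Bottom 5 negative, 28.7, 20.1 and 23.0 in the positive sort then 5 and 18.5, 17.8 and 29.1 in Top 5 positive libraries. SLC16A3 held 32.2, 35.7 and 37.9 CPM, 26.7, 47.2 and 38.2 CPM, 36.4, 45.3 and 37.8 CPM and 13.9, 39.5 and 45.7 CPM in the same order of groups, overlapping the parental range of 19.3 to 57.6 CPM. The positive sort then 5 rounds had 0 calls among 39 (0.039% of tested genes were called), with 1 member under 0.05 unadjusted (3.01% of tested genes). PFKFB3 was at 48.6, 92.1 and 54.0 CPM against 83.3, 85.8 and 125 CPM in Parental positive libraries. Top 5 positive cells had 0 calls (0.163% of tested genes were called), with 1 member under 0.05 unadjusted (17.4% of tested genes), and PFKFB3 was at 82.9, 129 and 94.0 CPM. DESeq2 also called 0 members in both, and 0.148% and 0.373% of its tested genes.

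Over all 10 groups at once, 2 of 39 genes differed, PFKFB3 (edgeR adjusted p = 0.00169) and ADM (0.0251), where 6.12% of tested genes were called. DESeq2 called 8 (these, EGLN3, HK1, HK2, NDRG1, SLC16A3 and SLC2A3), and 13.2% of its tested genes. ADM did not pass without Top 10 negative replicate 2 (0.0634) or 3 (0.0616), or without Bottom 10 positive replicate 1 (0.0768). The next members were EGLN3 (0.0875) and HK2 (0.092), both of which passed without Bottom 10 positive replicate 3, as HK2 did in 3 of the 30 fits that left out 1 library. EGLN3, at its few counts, was 0.29, 0.90 and 0.96 CPM in Parental negative libraries, 1.59, 1.64 and 1.05 in Parental positive, 0.65, 0.32 and 0.66 in Top 10 negative, and 0.39, 0.60 and 0.74 in Top 10 positive libraries. It was 0.68, 0.40 and 0.61 CPM in Bottom 10 negative, 0.39, 0.35 and 1.09 in Bottom 10 positive, 1.63, 1.91 and 1.20 in the negative sort then 4 rounds, and 1.51, 1.02 and 1.02 in the positive sort then 5. Bottom 5 negative libraries held 0.80, 1.13 and 1.30 CPM and Top 5 positive libraries 1.12, 0.68 and 1.28. The negative sort then 4 rounds thus lay above all Top 10 libraries, and the share of tested genes that did so was not counted. HK2, the hypoxia-inducible hexokinase, held 147, 159 and 195 CPM in Top 10 negative and 247, 182 and 193 CPM in Top 10 positive libraries. It held 223, 190.4 and 191 CPM in Bottom 10 negative and 239.8, 167 and 123 CPM in Bottom 10 positive libraries. Parental negative libraries held 159, 145 and 134 CPM of HK2 and Parental positive libraries 113, 106 and 186. It held 116, 115 and 127 CPM in the negative sort then 4 rounds, 94.9, 134 and 110.3 in the positive sort then 5, 176, 88.1 and 124 in Bottom 5 negative and 120.2, 134 and 97.7 in Top 5 positive libraries. These libraries ran from 88.1 to 186 CPM and overlapped the ten-round groups.

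Other genes of the same pathways, from wider lists, gave few calls. Of 39 further genes of glycolysis, gluconeogenesis and pyruvate metabolism, 33 were tested and 0 passed in any of the 13 edgeR tests. Per test 0 to 6 had an unadjusted p under 0.05 and DESeq2 called 0 to 3. The 6 and the 3 were those over all 10 groups. There 2916 of 15381 tested genes were under 0.05 unadjusted, and DESeq2 called 13.2% of its tested genes. Of 52 further HIF pathway and target genes, 49 were tested, and CITED2 was the 1 called, in the comparison above and over all 10 groups (edgeR adjusted p = 0.0121). DESeq2 called 0 to 8 per test, and the 8 were also those over all 10 groups. Of these 49 genes, 41 were higher and 8 lower in Bottom 10 than in Parental cells. Their median log2 fold change was 0.49, beside 0.32 for the 39 genes and 0.03 for all tested genes. In that comparison 22 had an unadjusted p under 0.05, where 12.8% of tested genes did. In Top 10 against Parental cells 36 of the 49 were higher and 13 lower, with a median of 0.25. There 13 had an unadjusted p under 0.05, where 13.4% of tested genes did.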

How the data were processed

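For each library the authors deposited a table that pairs gene symbols with unnormalized read counts. The submitters' processing notes name STAR, HTSeq, DESeq and the build hg19; versions, parameters, annotation and strand setting are not given in the sources used here. Reads without a gene made up 22.1 to 31.8% per library and stayed out of library sizes. Counts per library limit the precision of low genes.

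Genes were filtered with edgeR (minimum count 10, minimum total 15), scaled by TMM, and tested by quasi-likelihood in edgeR 4.0.16 under R 4.3.3 (10 groups in 1 fit, no replicate block). The SE is the log2 fold change divided by the square root of F. Correlations used log2 CPM with a prior count of 2. Transcript lengths came from a GENCODE annotation, for 94.1% of tested genes and all 39 members. The longest principal transcript of each gene was used, whichever transcript the cells express. In simulated counts for the mean of sorts between Bottom 10 and Top 10, on 15381 genes, the test recovered 49 of 100 genes given a 2-fold and 90 of 100 given a 4-fold change; 4 of its 143 calls were false.

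The members and gene lists were chosen with earlier results of these data known. Values in every library are given for members called in any comparison and for the 4 with the smallest p over all groups. CA9, NDRG1, ALDOC, HIF1A, PKM, SLC2A1, SLC2A3, PFKFB4, ENO2, BNIP3, PGK1 and CITED2 were singled out after their values had been seen. Alternatives were DESeq2 1.42.0, RLE factors, no filter, only the compared groups, replicate blocks and leaving out each library; leaving out the 6 libraries that stood apart, and each replicate number of the blocked fit, was added after seeing the data. The labels do not state a pairing. Correlations of same-numbered libraries after removing group means were 0.41, 0.63 and 0.69 between Top 10 and Bottom 10 negative, and 0.26, 0.57 and 0.55 between Top 10 and Bottom 10 positive, so blocked values are given for these 2 comparisons. They were 0.59, 0.38 and 0.41 between Parental negative and Bottom 5 negative, where a block in the fit of all groups left the count of called members at 1.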

Additional observations from a re-analysis of the deposited data

Results flagged for a closer look

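SLC16A3, the lactate exporter, lay on opposite sides of its parental level in the 2 sorts after 10 crossings, and is listed here for that. All 3 Bottom 10 negative libraries lay above the Parental negative mean, by 0.24 on average on the log2 scale, and all 3 Bottom 10 positive libraries lay below the Parental positive mean, with an average of -0.37. The Bottom 10 means were close, at 32.7 CPM in the negative and 33.2 CPM in the positive sort. The parental means lay further apart, at 28.6 and 44.97 CPM. Parental negative replicate 3 (36.5 CPM) was above all 3 Bottom 10 negative libraries. Parental positive replicate 3 (26.5 CPM) was below all 3 Bottom 10 positive libraries. The differences of 0.24 and -0.37 were 0.61 apart. The difference between the sorts was not tested.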

How the results depend on the processing

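Of the 39 genes, the count called in each comparison was unchanged or within 1.5 times with RLE factors and with a replicate block in the fit of all groups. DESeq2 called 1 member in the negative sort and 1 in the positive sort between Bottom 10 and Top 10, 4 between Bottom 10 and Parental, 1 between the sorts over 3 populations, and 8 over all groups. With no filter, and with only the compared groups fitted, 0 were called for Top 10 and 0 for Bottom 10 against Parental; the latter fit also called 0 for the negative sort then 4 rounds and 0 for Bottom 5 negative. Without the 6 libraries that stood apart, the counts were 1 (ADM) in the negative sort, 1 (PFKP) in the positive sort, 5 for Bottom 10 against Parental, and 0 for the negative sort then 4 rounds and for Bottom 5 negative. The replicate block in the 4 ten-round groups called 6 members in the negative sort, 6 in the positive sort and 10 in their mean; Top 10 negative and Bottom 10 positive replicate 1 correlated at -0.12, so their numbers do not pair by that measure. Without replicate 1, 2 or 3, that fit called 3, 0 and 8 members in the negative sort, 3, 1 and 4 in the positive sort, and 7, 3 and 11 in their mean. The block changed no other call by more than 1.5 times.

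Leaving out 1 library at a time gave 0 to 1 members in the negative sort, 0 in the positive sort, 1 to 2 in their mean, 0 to 2 for Top 10 and 0 to 2 for Bottom 10 against Parental, 0 to 1 for the negative sort then 4 rounds, 0 to 1 for Bottom 5 negative and 1 to 4 over all groups. In the comparisons with 0 calls and no range here it gave 0. For fits without 1 or more libraries, the share of all tested genes called was not counted. No named result changed direction in any alternative run. The cause of these differences was not tested. For the mean of sorts, with 6 Bottom 10 against 6 Top 10 libraries, 49 of 100 simulated 2-fold changes were recovered. Comparisons of 3 against 3 libraries were not simulated. Genes with under 50 counts, such as CA12 and EGLN3, are least precise.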
